A study of Sorghum bicolor with 15 samples.

Results

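The 7 sorghum genes described here, Sobic.001G400700 to Sobic.001G401300, stand side by side on chromosome 1 in ID order and carry the Bet v I domain (Pfam PF00407). They are 7 of the 34129 genes in the count table, and all 7 passed the filter on low counts, Sobic.001G400900 only through its SRN39 libraries. They were chosen because they follow each other in ID order and stand together in the study's list for the genotype term of its genotype-by-age model. The fold changes of that list are read here as the difference at 28 d, since they follow the 28 d libraries, so the 28 d genotype difference is given as a description with no test. The annotation of that list gives a pathogenesis-related Bet v I family protein as the best rice match of the genes and the ontology terms for defense response and for response to biotic stimulus. Its best Arabidopsis match is PYR1-like 6 (PYL6) for Sobic.001G400700, Sobic.001G400800, Sobic.001G400900, Sobic.001G401100 and Sobic.001G401200, and PYR1-like 12 (PYL12) for Sobic.001G401000 and Sobic.001G401300.

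Bet v I proteins are named after the major allergen of birch pollen. They are small proteins folded around a hydrophobic pocket, and the intracellular pathogenesis-related members of the family are known in many plants for accumulating after infection, wounding and other stress, and in roots also without it. The abscisic acid receptors of Arabidopsis, the PYR/PYL proteins, share this fold and bind the hormone in the pocket, after which they inhibit type 2C protein phosphatases. A best match to a PYL protein is a statement on sequence likeness and does not make a sorghum gene an abscisic acid receptor.

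The libraries came from whole roots of 2 sorghum varieties, Shanqui Red (SQR), a host that Striga infests readily, and SRN39, which resists it, harvested from plants 28 or 35 d old. SRN39 carries the lgs1 mutation, which changes the strigolactones a root exudes. All plants grew, with no Striga named in the growth notes, in a plug of sterilized soil set into sand, in a greenhouse, on diluted Hoagland solution with little phosphate, so low phosphate is common to every group. There were 4 biological replicates of SQR at 28 d, of SRN39 at 28 d and of SRN39 at 35 d, and 3 of SQR at 35 d. The 2 varieties differ across the genome, so no difference below is that of a single allele, and each variety is represented by 1 line.

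Total counts were 6369710 to 17304929 per library. Levels are given as CPM, the counts of a gene scaled to a common library total, on library sizes scaled by the TMM method of edgeR. These are 3′ mRNA-Seq libraries, in which a transcript gives reads from its 3′ end only, so counts do not grow with transcript length and levels of different genes are compared as read numbers. LGS1 (Sobic.005G213600), the sulfotransferase gene affected in SRN39, stood at 52.3 ± 20.5 CPM (SD, n = 4) and 25.9 ± 11.8 CPM (SD, n = 3) in SQR at 28 and 35 d and at 1.13 ± 0.487 CPM and 1.37 ± 0.333 CPM (SD, n = 4 each) in SRN39, and was lower in every SRN39 library than in any SQR library. Library-to-library spread was widest in SQR at 35 d, with a mean variance of log2 CPM over genes of 0.391 against 0.16 to 0.222 in the other groups. Markers of root cell types were not analysed here.

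One limit touches every value. The 7 genes are related neighbours, and reads of both varieties were mapped to the genome of another line, BTx623. How the reads divide between related copies is therefore uncertain, and a difference in transcript level and a difference in gene sequence between the varieties cannot be told apart in these counts. Comparisons between ages lie within 1 variety. In whole roots, fewer cells that express a gene and less RNA per cell cannot be told apart either.

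The 7 genes together were abundant in all 4 groups, and their sum was higher at 35 d than at 28 d on average in both varieties. In SQR at 28 d the family sum was 4320, 3130, 2130 and 2610 CPM in the 4 libraries, and in SRN39 at 28 d it was 1370, 1680, 1670 and 1350 CPM. At 35 d it was 6550, 2650 and 9180 CPM in SQR and 5080, 4180, 4570 and 3200 CPM in SRN39. The groups of the varieties did not overlap at 28 d and overlapped at 35 d, where SQR replicate 2 lay below all 4 SRN39 libraries and the other two SQR libraries above them. The mean sum in SRN39 was 0.498 of that in SQR at 28 d and 0.695 of it at 35 d. From 28 to 35 d it was 2.81 times as high in SRN39, with no overlap, and 2.01 times as high in SQR, where replicate 2 at 35 d fell within the range of the 28 d libraries. As a score over chosen genes the sum was given no test.

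**Figure D1:**
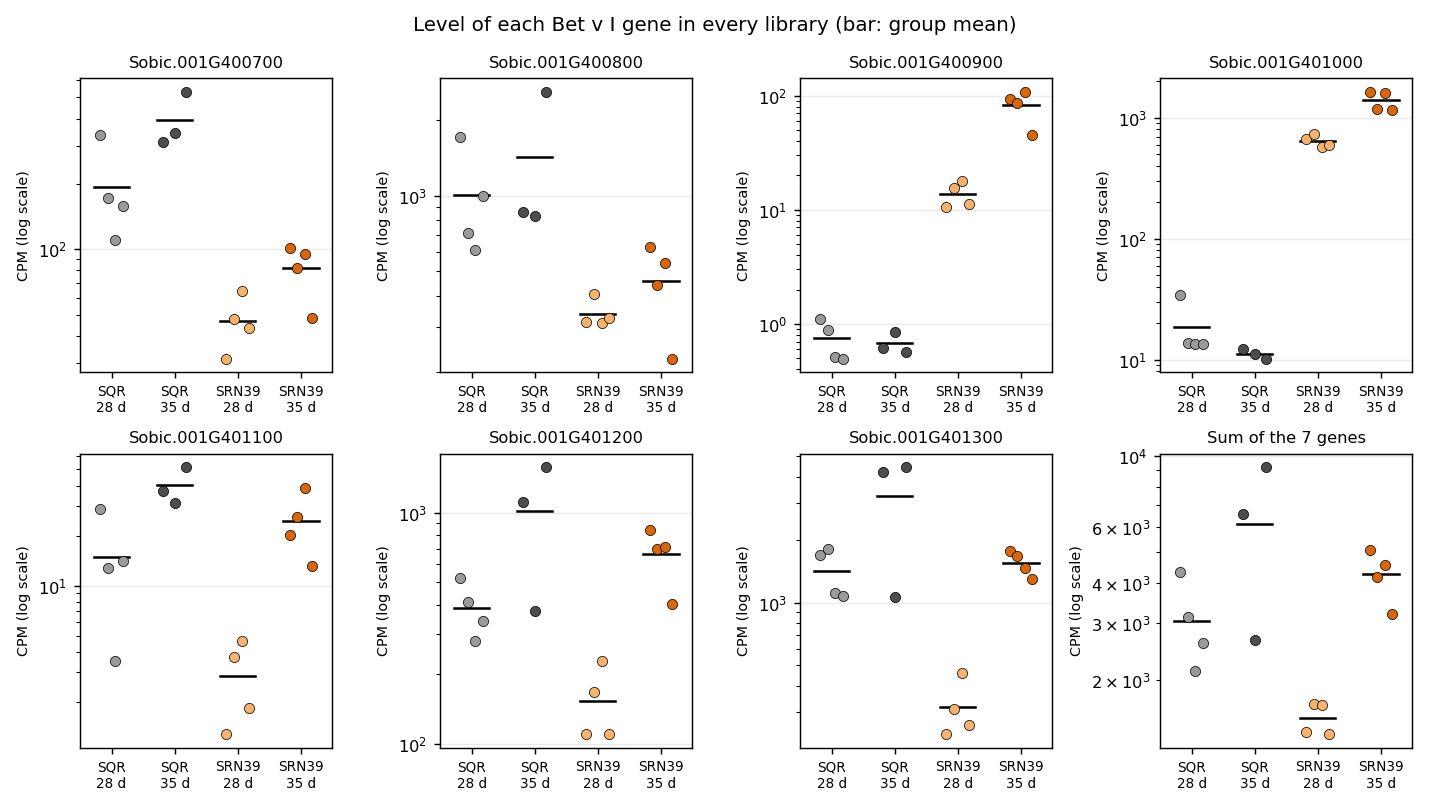
CPM of each of the 7 Bet v I genes and of their sum (log axes, each panel with its own range) in every library of SQR (grey) and SRN39 (orange) at 28 and 35 d, with each point a library and each bar a group mean. Sobic.001G400900 and Sobic.001G401000 lie far higher in every SRN39 library than in any SQR library, whereas Sobic.001G400700 lies lower in every SRN39 library than in any SQR library.

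The 2 varieties filled this sum with different genes. In SQR, Sobic.001G401300 held 47.6 ± 8.83% of the family reads at 28 d (SD, n = 4) and 50.8 ± 12.5% at 35 d (SD, n = 3), and Sobic.001G400800 followed with 32.3 ± 8.05% and 24.2 ± 9.77%. In SRN39 at 28 d, Sobic.001G401000 led with 42.8 ± 5.9%, ahead of Sobic.001G400800 with 22.5 ± 2.57% and Sobic.001G401300 with 20.6 ± 4.79% (SD, n = 4). At 35 d, Sobic.001G401300 with 36.8 ± 4.22% and Sobic.001G401000 with 33 ± 3.61% shared the lead in SRN39 and their libraries overlapped. Sobic.001G401000 had the largest share in 4 of the 4 SRN39 libraries at 28 d, in 1 of 4 at 35 d, and in none of the SQR libraries. Sobic.001G401300 had the largest share in all SQR libraries except replicate 1 at 28 d, in which Sobic.001G400800 held 39.5% and Sobic.001G401300 39.2%.

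Sobic.001G401000 and Sobic.001G400900, the 2 genes higher in SRN39, made up 0.62 ± 0.153% and 0.255 ± 0.175% of the family reads in SQR at 28 and 35 d, and 43.7 ± 5.76% and 34.9 ± 3.52% in SRN39. The sum of the other 5 genes at 28 d was 3030 ± 933 CPM in SQR, against 860 ± 175 CPM in SRN39, and at 35 d these values were 6120 ± 3280 and 2780 ± 567 CPM. The genes were divided by the direction of their genotype difference. A lower SRN39 sum of the 5 and a higher SRN39 share of the 2 therefore both follow from that division.

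**Figure D2:**
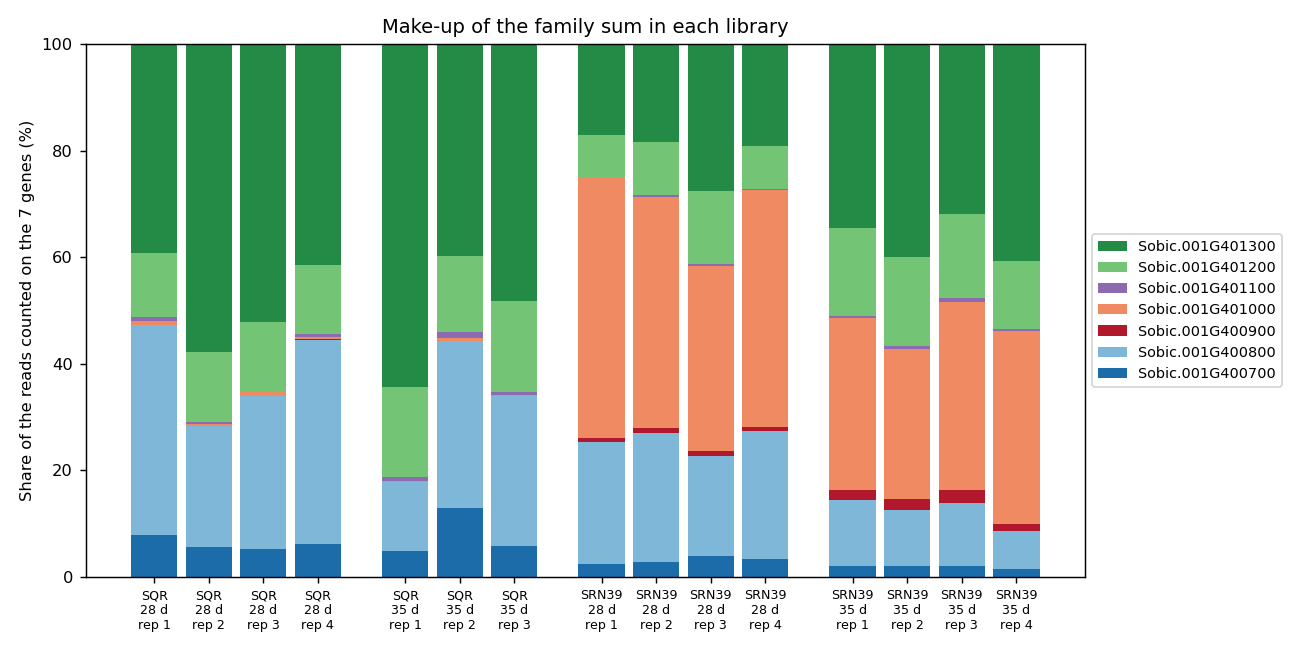
Share of each of the 7 genes in the reads counted on all 7 (percent, bars stacked to the whole) for each of the 15 libraries, grouped by variety and age. Sobic.001G401000 (orange) takes 28.2 to 48.7% in the SRN39 libraries and at most 0.792% in the SQR libraries.

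The order of the 7 genes within SQR at 28 d was Sobic.001G401300 (39.2 to 57.8%), Sobic.001G400800 (22.7 to 39.5%), Sobic.001G401200 (12.1 to 13.1%), Sobic.001G400700 (5.22 to 7.76%), Sobic.001G401000 (0.439 to 0.792%), Sobic.001G401100 (0.165 to 0.673%) and Sobic.001G400900 (0.019 to 0.0281%). Over the libraries, the ranges overlapped between Sobic.001G401300 and Sobic.001G400800 and between Sobic.001G401000 and Sobic.001G401100. All other neighbours in that order were apart. Among the 18473 genes tested, Sobic.001G401300 ranked 14 by mean CPM in SQR at 35 d and 53 in SRN39 at 35 d, and Sobic.001G401000 ranked 63 in SRN39 at 35 d and 8030 in SQR at 35 d. Sobic.001G400900, the least abundant of the 7 in SQR, ranked 17647 there at 35 d and 1916 in SRN39.

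At 28 d, the comparison that chose the genes, 2 of the 7 were higher in SRN39 and 5 lower. The fitted log2 fold changes (SRN39 minus SQR) were 4.2 for Sobic.001G400900 and 5.11 for Sobic.001G401000, and -2.06, -1.57, -2.36, -1.33 and -2.17 for Sobic.001G400700, Sobic.001G400800, Sobic.001G401100, Sobic.001G401200 and Sobic.001G401300. The libraries of the 2 varieties were apart for 6 of the 7 and overlapped for Sobic.001G401100. Over all genes, 22.5% were apart and 17.4% were called, and nothing is read from the members' count, since this contrast selected them. No threshold values just inside or outside the choice can be given, because it rested on a list and on ID order.

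The 35 d libraries did not enter the 28 d difference itself, although the study's model was fitted to both ages together and so took its spread and scaling from them too. At 35 d the split was the same, with Sobic.001G400900 and Sobic.001G401000 higher in SRN39 and Sobic.001G400700, Sobic.001G400800 and Sobic.001G401300 lower. Thus 5 of the 7 passed the edgeR quasi-likelihood test with Benjamini-Hochberg adjustment at 0.05, where 35.6% of all genes tested did. The direction was that of 28 d for 7 of 7, and the libraries were apart for 4 of 7, against 36.6% of all genes. By direction, 16.3% of all genes were called as higher and 19.4% as lower in SRN39. The median log2 fold change of the 7 was -0.70 and that of all genes was -0.06. The median absolute change was 1.64 against 0.54. The 7 genes were listed for a difference between these same varieties, and the genes at large were not. Larger values than those of all genes may follow from that choice, so these counts and medians are a description. They include Sobic.001G400900, which was admitted to the test only through its SRN39 libraries.

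Sobic.001G401000, one of the 2 genes with PYL12 as best Arabidopsis match, was read at 12.2, 11.1 and 10.2 CPM in SQR at 35 d and at 1640, 1180, 1610 and 1160 CPM in SRN39. Every SRN39 library was thus more than an order of magnitude above every SQR library. The log2 fold change was 6.96 (SE 0.38), or 125-fold, with an adjusted p of 9.5e-10. At 28 d it had been read at 34.3, 13.7, 13.4 and 13.6 CPM in SQR and at 668, 731, 577 and 600 CPM in SRN39. The varieties were thus also apart in the libraries that chose the gene, with a smaller fitted log2 fold change of 5.11. In SQR these levels rest on 82 to 278 counts per library.

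Sobic.001G400900, with PYL6 as best match, was near the limit of detection in SQR and not in SRN39. It was read at 0.611, 0.857 and 0.564 CPM in SQR at 35 d and at 93.8, 86.3, 108 and 45.4 CPM in SRN39. Its log2 fold change was 6.92 (SE 0.39), or 121-fold, with an adjusted p of 1.3e-09. At 28 d it stood at 1.11, 0.879, 0.512 and 0.496 CPM in SQR and at 10.6, 15.5, 18 and 11.3 CPM in SRN39. The SQR values come from 3 to 11 counts per library over both ages, so the size of the fold is less certain than its direction. The filter asked for more than 1 CPM, before scaling, in 3 or more libraries, which 2 of the 7 SQR libraries and 8 of the 8 SRN39 libraries exceeded, so the gene was admitted to the test by the variety in which it is high, and the p values of its genotype difference and interaction, and the counts and medians over the 7 genes that include it, are to be read as description. Leaving out any 1 library kept its log2 fold change between 6.77 and 7.13, and that of Sobic.001G401000 between 6.88 and 7.04.

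Counts on Sobic.001G400900 were a small part of those on its neighbour Sobic.001G401000 in every library. They amounted to 4.28 ± 1.43% of them in SQR at 28 d (SD, n = 4), 6.07 ± 1.43% in SQR at 35 d (SD, n = 3), 2.18 ± 0.667% in SRN39 at 28 d and 5.92 ± 1.49% in SRN39 at 35 d (SD, n = 4 each). The ranges were 1.58 to 3.12% in SRN39 at 28 d and 3.92 to 7.32% at 35 d, which do not overlap. Whether some of these reads belong to the neighbouring copy was not tested.

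Sobic.001G400700 and Sobic.001G400800, the first 2 genes of the row, were lower in SRN39 at 35 d. Sobic.001G400700 was read at 311, 342 and 531 CPM in SQR and at 101, 82.1, 95.2 and 48.4 CPM in SRN39, with no overlap. Its log2 fold change was -2.28 (SE 0.34, adjusted p = 7.9e-05). Sobic.001G400800 was read at 859, 834 and 2590 CPM in SQR and at 628, 441, 539 and 225 CPM in SRN39, again without overlap, although 1 SQR library was about 3 times as high as the other two. Its log2 fold change was -1.64 (SE 0.41, adjusted p = 0.0053). Without that library, replicate 3 of SQR at 35 d, it was -0.89 with an adjusted p of 0.077, so the call for Sobic.001G400800 rests on it.

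The last 3 genes of the row had smaller fitted differences at 35 d. Sobic.001G401300 was read at 4220, 1060 and 4430 CPM in SQR and at 1760, 1670, 1460 and 1300 CPM in SRN39, so that SQR replicate 2 lay below all SRN39 libraries. The log2 fold change of Sobic.001G401300 was -1.06 (SE 0.37, adjusted p = 0.032), and the call was lost without SQR replicate 1 (-0.83, adjusted p = 0.12) or SQR replicate 3 (-0.77, adjusted p = 0.15). It was lost as well without SRN39 replicate 2 (adjusted p = 0.053), replicate 3 (adjusted p = 0.069) or replicate 4 (adjusted p = 0.076) at 35 d. Without SQR replicate 2 it was -1.48 with an adjusted p of 0.00044.

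Sobic.001G401200 was read at 1110, 376 and 1570 CPM in SQR and at 843, 698, 714 and 404 CPM in SRN39, with a log2 fold change of -0.62 (SE 0.38, 95% interval -1.42 to 0.19, adjusted p = 0.22). The same SQR replicate 2 was the lowest of the 7 libraries, and without it the log2 fold change was -1.01 with an adjusted p of 0.021. Sobic.001G401100 was read at 37.3, 31.5 and 51.4 CPM in SQR and at 20.2, 26, 38.9 and 13.2 CPM in SRN39, with a log2 fold change of -0.70 (SE 0.49, 95% interval -1.73 to 0.32, adjusted p = 0.28). For both genes the interval includes 0 and also a change of more than 2-fold. The count of members called between varieties at 35 d was 3 without SQR replicate 3 and 6 without SQR replicate 2. Over all genes, those fits called 5712 and 6361, and the fit with every library called 6582.

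**Figure D3:**
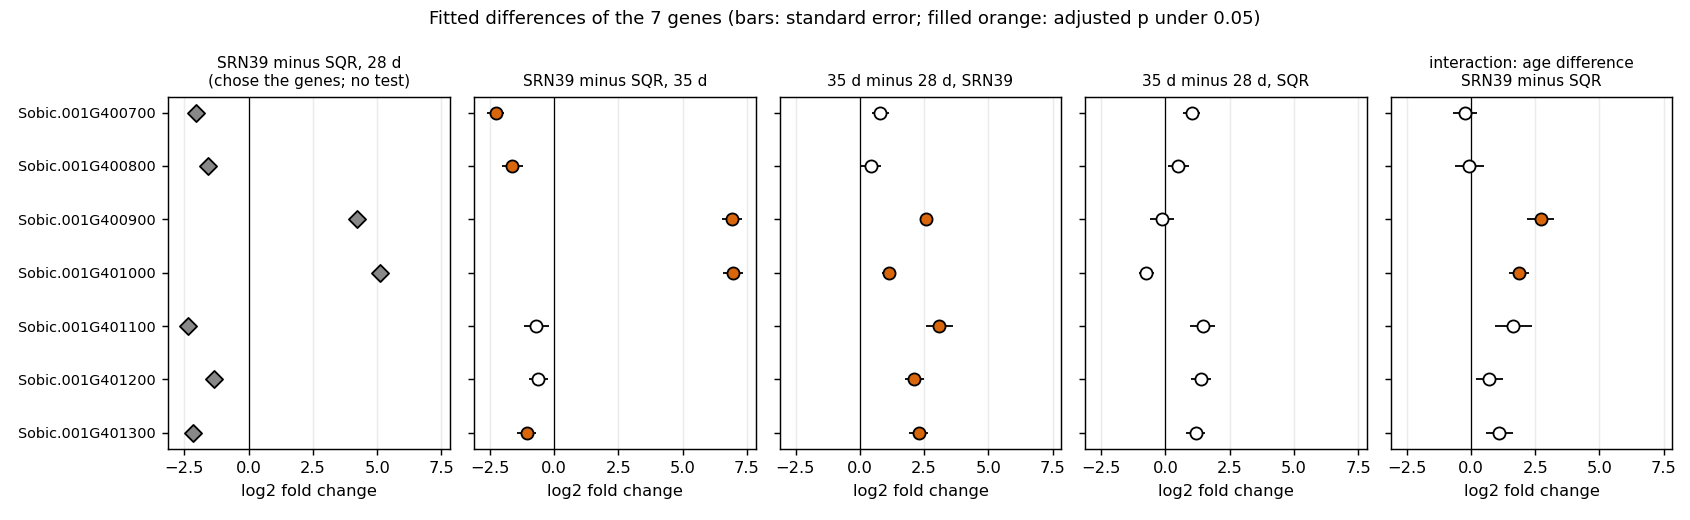
Fitted log2 fold changes of the 7 genes in the 5 contrasts on 1 common axis, with bars for the standard error and orange filling where the adjusted p was under 0.05. Grey diamonds show the 28 d genotype difference that chose the genes, without error or test. Sobic.001G400900 and Sobic.001G401000 lie at 6.92 and 6.96 for the genotype difference at 35 d, and they are the 2 genes called for the interaction.

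Between 28 and 35 d in SRN39, 5 of the 7 genes rose and none fell. At the same threshold 30.9% of all genes were called, 15.7% as higher, and 5 of 7 members had no overlap between ages against 35.8% of all genes. The median log2 fold change of the 7 was 2.11 and that of all genes 0.04. This contrast and the next ones share the 28 d libraries with the contrast that chose the genes, so they are not independent of that choice.

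In SRN39 the largest fitted change was that of Sobic.001G401100, the least abundant member there, which was read at 1.27, 3.71, 4.62 and 1.82 CPM at 28 d and at 20.2, 26, 38.9 and 13.2 CPM at 35 d. It had a log2 fold change of 3.10 (SE 0.53, adjusted p = 0.00059). Sobic.001G400900 followed with 2.59 (SE 0.26, adjusted p = 1.4e-05), from 10.6 to 18 CPM at 28 d to 45.4 to 108 CPM at 35 d. Both genes thus rose several-fold from a low level.

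Sobic.001G401300 was read at 234, 311, 461 and 259 CPM in SRN39 at 28 d and at 1300 to 1760 CPM at 35 d, with a log2 fold change of 2.29 (SE 0.36, adjusted p = 0.00033). Its neighbour Sobic.001G401200 was read at 110, 167, 229 and 110 CPM at 28 d and at 404 to 843 CPM at 35 d, with 2.11 (SE 0.37, adjusted p = 0.00074). In both, replicate 3 was the highest of the 28 d libraries and still below every 35 d library. Sobic.001G401000, already high at 28 d, had the smallest value among the genes that rose, a log2 fold change of 1.12 (SE 0.26, adjusted p = 0.0043). In CPM, Sobic.001G401300 contributed 1230 of the 2740 CPM by which the mean family sum rose in SRN39, Sobic.001G401000 753 and Sobic.001G401200 511.

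The first 2 genes of the row did not pass the test in SRN39. Sobic.001G400700 was read at 31.4, 47.7, 64.2 and 43.6 CPM at 28 d and at 48.4 to 101 CPM at 35 d, with a log2 fold change of 0.80 (SE 0.32, 95% interval 0.13 to 1.47, adjusted p = 0.063). Leaving out each of the 15 libraries in turn, it was called 4 times, namely without SQR replicates 1 (adjusted p = 0.029) or 3 (0.047) at 28 d, SRN39 replicate 3 at 28 d (0.036) or SRN39 replicate 4 at 35 d (0.036). Sobic.001G400800 was read at 316, 406, 312 and 326 CPM at 28 d and at 225 to 628 CPM at 35 d, with 0.43 (SE 0.38, 95% interval -0.38 to 1.24, adjusted p = 0.41). The other 5 calls in SRN39 held in all 15 of these fits.

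In SQR, 0 of the 7 genes passed the edgeR test between ages, where 2.6% of all genes did. At an unadjusted p under 0.05 there were 5, beside 23.1% of all genes. DESeq2 called 3 of them (Sobic.001G400700, adjusted p = 0.046, Sobic.001G401200, 0.01, and Sobic.001G401300, 0.025), and limma-voom called 2 (Sobic.001G400700, 0.042, and Sobic.001G401200, 0.047), all higher at 35 d. Of the 18473 genes fitted, DESeq2 called 1390 and limma-voom 337 between ages in SQR, where edgeR called 480. The median log2 fold change of the 7 was 1.02 and that of all genes 0.06. By library, 2 of the 7 had no overlap, against 13.8% of all genes, with Sobic.001G401100 at 3.52 to 29.1 CPM at 28 d and 31.5 to 51.4 CPM at 35 d and Sobic.001G401000 at 13.4 to 34.3 CPM and 10.2 to 12.2 CPM.

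The fitted log2 fold changes in SQR were 1.39 for Sobic.001G401200 (SE 0.38, adjusted p = 0.057), 1.18 for Sobic.001G401300 (SE 0.37, adjusted p = 0.079) and 1.02 for Sobic.001G400700 (SE 0.33, adjusted p = 0.093). Sobic.001G401100 had 1.45 (SE 0.50, adjusted p = 0.11) and Sobic.001G400800 0.50 (SE 0.41, adjusted p = 0.48). The 2 genes that are high in SRN39 had negative values, -0.74 for Sobic.001G401000 (SE 0.30, adjusted p = 0.15) and -0.13 for Sobic.001G400900 (SE 0.46, adjusted p = 0.89). None of these passed the test, and the value of Sobic.001G400900 was 0.09 when libraries were scaled by their totals.

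Sobic.001G400700 was read in SQR at 335, 173, 111 and 159 CPM at 28 d and at 311, 342 and 531 CPM at 35 d, and only the highest 28 d library overlapped the 35 d range. Sobic.001G400800 was read at 1710, 712, 611 and 1000 CPM at 28 d and at 859, 834 and 2590 CPM at 35 d, so that its ages overlapped broadly.

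Single libraries weighed on these values. At 35 d, SQR replicate 2 held 376 CPM of Sobic.001G401200 and 1060 CPM of Sobic.001G401300, beside 280 to 522 CPM and 1080 to 1810 CPM in the 28 d libraries, whereas the other two 35 d libraries held 1110 and 1570 CPM and 4220 and 4430 CPM. Without it, Sobic.001G401200 (1.79, adjusted p = 0.025) and Sobic.001G401300 (1.60, adjusted p = 0.021) were called, 2 genes in place of 0. Over all genes, 68 were then called, where 480 were with every library. Without SQR replicate 1 at 28 d, Sobic.001G400700 was called (1.42, adjusted p = 0.038), and without SRN39 replicate 3 at 28 d, Sobic.001G401200 (1.39, adjusted p = 0.049). The value of Sobic.001G400800 turned to -0.25 without SQR replicate 3 at 35 d.

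In the edgeR fit, the age difference itself differed between the varieties for the 2 genes that are high in SRN39. In SQR these 2 genes together held only 0.62% and 0.255% of the family reads at 28 and 35 d. Whether their SQR reads belong to related copies was not tested. The interaction of genotype and age, computed by subtracting the age effect of SQR from the one of SRN39, was 2.72 for Sobic.001G400900 (SE 0.53, adjusted p = 0.0072), which passed the filter through SRN39 alone, and 1.86 for Sobic.001G401000 (SE 0.39, adjusted p = 0.011) on the log2 scale. The 2 genes are 2 of 7 called, where 7.34% of all genes were (3.68% with a positive value). Since Sobic.001G400900 was admitted by the variety in which it is high, that count and its own p value are a description. Both calls held in all 15 fits that left out 1 library. For Sobic.001G401000 the mean went from 644 ± 69.5 to 1400 ± 265 CPM in SRN39 (SD, n = 4 each) and from 18.8 ± 10.3 (SD, n = 4) to 11.2 ± 0.997 CPM (SD, n = 3) in SQR. The lower SQR mean at 35 d owes much to SQR replicate 1 at 28 d, read at 34.3 CPM. Without that library the edgeR age value in SQR was -0.28 (adjusted p = 0.47) and the interaction 1.39 (adjusted p = 0.0082).

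The other 5 genes did not pass the interaction test. Their values were 1.65 for Sobic.001G401100 (95% interval 0.14 to 3.17, adjusted p = 0.17), 1.11 for Sobic.001G401300 (0.04 to 2.18, adjusted p = 0.19), 0.71 for Sobic.001G401200 (-0.40 to 1.83, adjusted p = 0.45), -0.22 for Sobic.001G400700 (-1.19 to 0.75, adjusted p = 0.82) and -0.07 for Sobic.001G400800 (-1.26 to 1.12, adjusted p = 0.96). Changes of 2-fold or more between the varieties lie within each of these intervals. A difference in age response between the varieties was therefore not shown for these 5 genes, including those called in SRN39 and not in SQR.

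The shares of the family reads were compared with a two-sided exact permutation test of library shares, over 7 genes and 3 comparisons. With 4 against 3 or 4 against 4 libraries the smallest p this test can give is 0.0286, and over the 21 tests 10 reached it and 0 had an adjusted p under 0.05, the smallest being 0.06. Between the varieties at 35 d, 4 shares had no overlap, namely Sobic.001G401000 (33% in SRN39 and 0.239% in SQR), Sobic.001G400900 (1.92% and 0.0159%), Sobic.001G400800 (10.4% and 24.2%) and Sobic.001G400700 (1.88% and 7.81%). The share of Sobic.001G401200 was 15.4% and 16.1% and overlapped (exact p = 0.571). After adjustment no share passed 0.05, but the smallest adjusted p came from tests at the smallest p that their library numbers allow. The adjusted result therefore reflects the floor of the test and does not decide whether these shares differ.

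Within SRN39, 5 of the 7 shares had no overlap between the 2 ages. Shares are defined only within the family, so counts of shares without overlap have no rate over all genes beside them. The age comparisons also use the 28 d libraries that chose the genes, so here and in SQR these counts are a description. Sobic.001G401300 held 17.1, 18.5, 27.7 and 19.2% at 28 d and 34.6, 39.9, 32 and 40.8% at 35 d, and Sobic.001G400800 held 23, 24.1, 18.7 and 24.1% and then 12.4, 10.5, 11.8 and 7.04%. Both comparisons had no overlap (exact p = 0.0286 and adjusted p = 0.06 for each). The 7 shares add up to the whole, so their tests depend on each other, and a lower share need not be a lower level. The level of Sobic.001G400800 in SRN39 was 340 ± 44.3 CPM at 28 d and 458 ± 173 CPM at 35 d (SD, n = 4 each). The share of Sobic.001G401000 was 48.7, 43.5, 34.7 and 44.4% at 28 d and 32.3, 28.2, 35.3 and 36.2% at 35 d, which overlapped (exact p = 0.0857). Each share comes from 12984 to 113959 family reads per library, so that, for example, the 95% exact binomial interval of the 36.2% in SRN39 replicate 4 at 35 d was 35.8 to 36.6%. Such intervals cover counting error only and are far narrower than the spread between libraries.

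In SQR, 2 of the 7 shares had no overlap between 28 and 35 d. Sobic.001G401200 went from 12.1, 13.1, 13.1 and 13% to 16.9, 14.2 and 17.1% without overlap (exact p = 0.0286, adjusted p = 0.06), and Sobic.001G401000 from 0.439 to 0.792% to 0.111 to 0.42% (exact p = 0.0571). Replicate 2 at 35 d stood apart here as well, with 12.9% of its family reads on Sobic.001G400700, where the other two libraries had 4.75 and 5.79%.

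Some of the 7 genes varied together from library to library. The correlations of log2 CPM run over the 7 SQR or the 8 SRN39 libraries, which span both ages and share library size scaling, and they are given as a description. Sobic.001G401200 and Sobic.001G401300, the last 2 genes of the row, had Pearson's r of 0.96 in SQR and 0.98 in SRN39, and Sobic.001G400700 with Sobic.001G401100 had 0.95 and 0.88. Sobic.001G401000 with Sobic.001G401300, the 2 genes whose best match is PYL12, had -0.20 in SQR and 0.91 in SRN39. That pattern was not particular to this pair. With genes whose best match is PYL6, Sobic.001G401000 had -0.21 and 0.92 (Sobic.001G401200), -0.03 and 0.9 (Sobic.001G401100) and -0.01 and 0.76 (Sobic.001G400700). With Sobic.001G400800 the values were 0.21 and 0.6. Sobic.001G400900 with Sobic.001G401000 had 0.64 and 0.95. The difference of these values between the varieties was not tested.

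By the lower of the 2 correlations, over 8413 genes with a mean of at least 10 CPM, the genes most like Sobic.001G401300 were Sobic.006G257800 (r = 0.922 in SQR and 0.979 in SRN39) and Sobic.003G085300 (0.905 and 0.994). Those most like Sobic.001G401000 were Sobic.005G041200 (0.903 and 0.962) and Sobic.010G070000 (0.878 and 0.89). Sobic.010G070000 was read at 5.7 ± 3.93 and 4.24 ± 1.15 CPM in SQR at 28 and 35 d and at 237 ± 53 and 378 ± 34.6 CPM in SRN39, so it also stood far higher in SRN39. No gene names for these IDs are given in the sources used here.

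The genes around the row were compared with it. Of the 10 table rows before Sobic.001G400700 and the 10 after Sobic.001G401300, 16 passed the filter on low counts, and at 35 d 3 of these were higher and 4 lower in SRN39, with log2 fold changes from -1.75 to 3.84. Over all genes, 16.3% were called higher and 19.4% lower. The median absolute log2 fold change of the 16 neighbours at 35 d was 0.64, beside 1.64 for the 7 Bet v I genes and 0.54 for all genes. The neighbours were taken by position and the 7 genes also from the genotype list, so the larger value of the 7 may follow from that choice. The nearest gene before the row, Sobic.001G400601, had -1.35 (adjusted p = 0.089) and the nearest after it, Sobic.001G401400, had -0.69 (adjusted p = 0.024). Neither neighbour had a difference as large as those of Sobic.001G400900 and Sobic.001G401000, but Sobic.001G401975, 8 rows after it and singled out once its values were seen, had a log2 fold change of 6.07 at 28 d, above both of them, with 58.2 ± 8.98 CPM in SRN39 and 0.876 ± 0.598 CPM in SQR (SD, n = 4 each). At 35 d Sobic.001G401975 stood at 8.76 ± 1.54 CPM in SRN39 and 0.598 ± 0.104 CPM in SQR (log2 fold change 3.84, adjusted p = 1.1e-05), and it fell with age in SRN39, by 2.73 on the log2 scale (adjusted p = 6.5e-05), where the Bet v I genes that passed the test rose. For the age difference in SRN39, 2 of the 16 neighbours were higher and 5 lower, where 30.9% of all genes were called, 15.7% as higher.

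**Figure D4:**
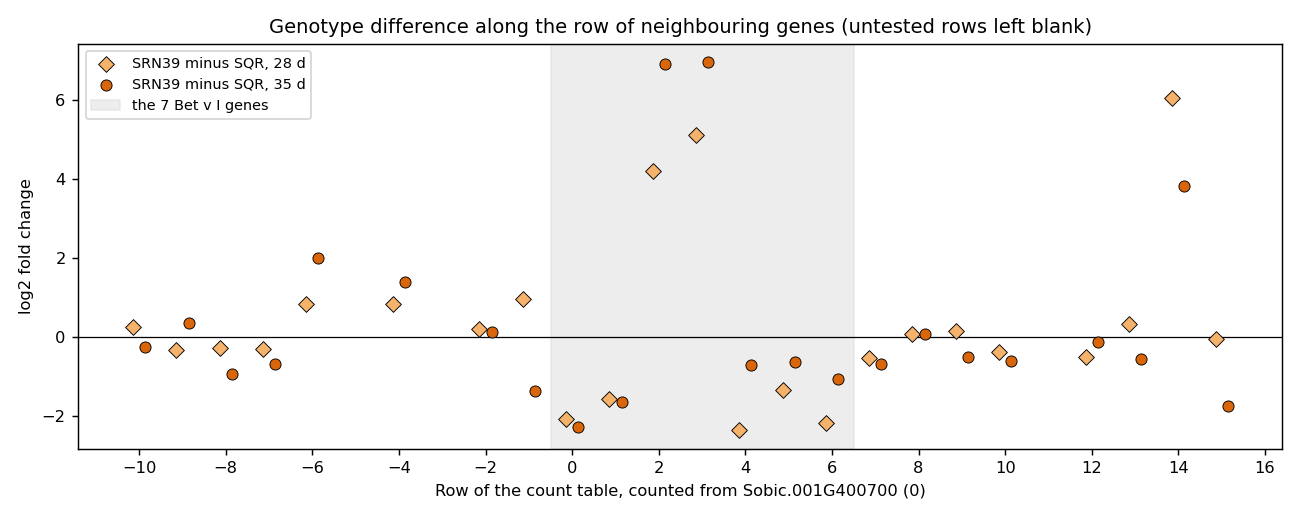
Log2 fold change (SRN39 minus SQR) at 28 d (diamonds) and 35 d (circles) of the 7 Bet v I genes (grey band) and of the 16 tested genes among the 20 rows around them, by place in the count table. Within the band, 2 genes lie above 4 and 5 below 0, and outside it Sobic.001G401975 lies at 6.07 at 28 d and 3.84 at 35 d.

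Genes of other defense families that stand in the same genotype list, and so were also chosen by the 28 d contrast, went in different directions. At 35 d, 2 of 3 passed the edgeR test, where 35.6% of all genes did, 16.3% as higher and 19.4% as lower. The chitinase gene Sobic.001G247900 was lower in SRN39 (log2 fold change -1.37, adjusted p = 0.009). Sobic.001G333400, of the CAP superfamily that includes PR-1 proteins, was higher (1.96, adjusted p = 3.7e-05). Chitinases cut the chitin of fungal walls. The thaumatin family gene Sobic.001G250100 had -0.35 (adjusted p = 0.13). Between ages in SRN39, the chitinase (1.27, adjusted p = 0.025) and thaumatin (0.65, adjusted p = 0.0084) genes rose, and Sobic.001G333400 had 0.58 (adjusted p = 0.072). Over all genes, 30.9% were called in that comparison, 15.7% as higher. Their levels were below those of the main Bet v I genes, with means of 0.808 to 5.12 CPM for the chitinase gene, 9.26 to 18.6 CPM for the thaumatin gene and 122 to 473 CPM for Sobic.001G333400 over the 4 groups.

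A further pair of genes touches the abscisic acid pathway whose receptors share the Bet v I fold. Sobic.003G354000 and Sobic.002G172000 are similar to Arabidopsis HAI3, a type 2C protein phosphatase of the class that the PYL receptors inhibit. The study names them for their interaction of genotype and age in these same libraries, so their interaction is a description here. It was 1.62 and 2.96 on the log2 scale. Sobic.002G172000 was read at 2.13 ± 0.864 CPM at 28 d and 8.04 ± 2.18 CPM at 35 d in SRN39, and at 3.34 ± 1.2 and 1.63 ± 0.597 CPM in SQR. Sobic.003G354000 was read at 3.24 ± 1.22 and 8.92 ± 1.15 CPM in SRN39, and at 6.35 ± 1.99 and 5.75 ± 0.769 CPM in SQR, so both lay at a level far below that of the main Bet v I genes.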

How the data were processed

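Roots of SQR and SRN39 sorghum at 28 and 35 d were profiled as 3′ mRNA-Seq libraries. Technical replicates were pooled, and after trimming the reads were aligned to the BTx623 genome with STAR (also named in the submitters' processing notes). The authors deposited raw read counts per gene. As generally implemented, STAR's gene counting keeps reads that map to 1 place only. Versions of STAR and of the annotation, and the strand setting, are not given in the sources used. Of 16 columns, 15 were used. The 1 left out matches no sample description. By its header it is a further replicate of SQR at 35 d, the group with the widest library-to-library spread. The paper states 4 biological replicates for each genotype and age. No 2 libraries held identical counts (105 pairs).

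The analysis used edgeR 4.0.16 under R 4.3.3. A gene had to exceed 1 CPM in 3 or more libraries, which kept 18473. Libraries were scaled by TMM. A single quasi-likelihood fit covered the 4 groups, where the study used limma-voom, and contrasts were tested two-sided with Benjamini-Hochberg adjustment over all genes at 0.05. Standard errors are the absolute log2 fold change over the square root of F. Log2 CPM used a prior count of 2. Shares were tested by exact permutation over libraries. The plan stated that 4 against 3 libraries cannot reach 0.05, but the smallest p is 0.0286. The scripts were tested on simulated data.

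The genes named are the 7 Bet v I genes, the 10 table rows on either side (nearest ones by name), 3 defense genes of the published list, 2 HAI3-like genes, LGS1, and the 2 genes most like Sobic.001G401300 and Sobic.001G401000. Genes and lists were chosen with earlier results of these data known. Names are best matches in the part of the published list held here. None of the IDs was found in the RefSeq table, so no positions or sequences are given. Alternatives were limma-voom (limma 3.58.1), DESeq2 1.42.0, RLE factors, library totals, no filter, edgeR's filter by group, only the groups compared, a replicate block, thinning to the smallest library (seed 20210819) and leaving out each library.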

Additional observations from a re-analysis of the deposited data

Results flagged for a closer look

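Within groups of 4 libraries, 45 sets of values of the 7 genes, their sum and their shares were checked for 1 library far from the others, and 3 had one, where chance gives about 1 in 20. They were Sobic.001G401000 at 34.3 CPM in SQR replicate 1 at 28 d (13.4 to 13.7 CPM in the other 3), Sobic.001G400800 at 406 CPM in SRN39 replicate 2 at 28 d (312 to 326 CPM in the others), and the share of Sobic.001G401200 in SQR replicate 1 at 28 d, 12.1% against 13 to 13.1%. Groups of 3 libraries, and so SQR at 35 d, were not checked this way.

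The age difference differed between the varieties, by the interaction term of the edgeR fit, for Sobic.001G401000 (1.86 on the log2 scale, adjusted p = 0.011). For Sobic.001G400900 the term was 2.72 (adjusted p = 0.0072). That gene passed the filter only through SRN39, where it is high, so its value and p are a description. Sobic.001G400900 was higher at 35 d in SRN39 with no overlap of libraries and overlapped between ages in SQR.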

How the results depend on the processing

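Of the log2 fold changes of the 7 genes under all alternatives, 623 kept their direction and their side of the threshold, 22 passed it newly, 9 no longer passed it and 10 changed sign. The changes of sign were those of values that did not pass the test: with library totals, 0.09 for Sobic.001G400900 between ages in SQR and 0.02 for Sobic.001G400800 in the interaction, and, over the fits leaving out 1 library, Sobic.001G400900 between ages in SQR (-0.33 to 0.08), Sobic.001G400800 between ages in SQR (-0.25 to 0.88), Sobic.001G400700 in the interaction (-0.62 to 0.06) and Sobic.001G400800 in the interaction (-0.45 to 0.68). Library totals moved the median of all genes by 0.27 between ages in SRN39 and by 0.22 in SQR, and the share of called genes that were higher from 50.8% to 74.7% and from 41.2% to 70.1%.

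The number of members called between ages in SQR, 0, became 2 with limma-voom, 3 with DESeq2, 3 with library totals and 1 with no filter, and ran from 0 to 2 over the fits leaving out 1 library. Between varieties at 35 d that range was 3 to 6, between ages in SRN39 5 to 6, and for the interaction 2 in all fits. In the same order, the fit with every library called 6582, 5704 and 1356 of the 18473 genes tested. Sobic.001G401300 lost its call at 35 d with limma-voom (-0.9, adjusted p = 0.07) and with only the groups compared (-1.03, adjusted p = 0.088). Between ages in SRN39, Sobic.001G400700 was called with limma-voom (adjusted p = 0.028), DESeq2 (0.044), library totals (0.015) and only the groups compared (0.02). Taking Sobic.001G401300 out of the sum left 1620 and 2890 CPM in SQR at 28 and 35 d and 1200 and 2710 CPM in SRN39, so that SRN39 held 0.739 and 0.937 of the SQR sum, and gave Sobic.001G401000 a share of 1.14, 0.479, 53.7 and 52.3% in SQR at 28 and 35 d and SRN39 at 28 and 35 d. By construction, shares rise when a gene leaves the sum.

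Replicate numbers did not pair the libraries: the correlation of deviations from the group means ran from -0.22 to 0.17 over 21 same-number pairs, and 2 of 15 libraries correlated best with their own number. With the replicate number as a block, 4, 5, 0 and 2 members were called between varieties at 35 d, between ages in SRN39, between ages in SQR and for the interaction, and Sobic.001G401300 at 35 d had -0.89 (adjusted p = 0.11). In the same order, the block fit called 5511, 5029, 103 and 711 of all genes. Over all genes, 480 were called between ages in SQR by the edgeR fit reported, 1390 by DESeq2, 337 by limma-voom, 703 with no filter, 703 with library totals, 2 with only the groups compared and 103 with the block, and without SQR replicate 1 at 28 d or SQR replicate 2 at 35 d 152 and 68. The interaction had 1356 by the edgeR fit and 711 with the block. Depth limits Sobic.001G400900 most, with 3 to 11 counts in each SQR library.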
